A study of Mus musculus with 30 samples.

Results

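The 10 genes described here act late in sperm formation: Crem, Tssk1, Spata16, Zpbp, Acr, Izumo1, Tex101, Odf2, Dnah8 and Catsper1. They were taken by name, not by a measured value, from the 34337 genes of the RefSeq annotation on GRCm38. DNA methylation at them was read by reduced representation bisulfite sequencing, which samples CpG-rich restriction fragments, in sperm from the cauda epididymis of 30 male C57BL/6J mice. For each gene, every CpG in the gene body or within 2000 bp beyond either end was taken if it had 10 or more reads in all 30 mice. This gave 160 CpGs of 416368 in the genome, from 1 in Acr to 54 in Dnah8, and 82 of them lay within 2000 bp of a gene end. The drinking water of the 15 cadmium mice, purified by reverse osmosis, held 0.9 ppm of the metal, added as the chloride salt, for an average dose of 0.68 mg per kg body weight. For the 15 vehicle mice it held no added cadmium. All mice were 7 weeks old at the start, ate a diet with little fat, lived alone in their cages, and were sampled after 9 weeks of treatment.

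Round spermatids become sperm by building an acrosome, the enzyme-filled cap used to reach the egg, and a flagellum, and by packing the genome on protamines. Many genes for these structures are read only in spermatocytes and spermatids, and the mature sperm carries their DNA with transcription shut down. In mammals most CpGs are methylated, whereas CpG-rich promoters (CpG islands) are usually not. Some testis-specific promoters are methylated in body cells and lose the mark in the germ line. The comparison asks which of these genes were methylated in mature sperm, which were free of methylation, and whether cadmium in the drinking water shifted either group.

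By the mean of all 30 mice, 3 of the 10 gene windows lay under 20% methylation, 2 lay between 20% and 80%, and 5 lay over 80%. Crem (0.53%), Odf2 (13.3%) and Izumo1 (16.3%) formed the low class, Tex101 (33.4%) and Dnah8 (79.2%) the middle one, and Spata16, Tssk1, Catsper1, Acr and Zpbp (91.5% to 97.9%) the high one. Over all 23474 genes with a measured CpG the shares were 49.8%, 33.2% and 16.95%. Of the 160 single CpGs, 75 were under 20%, 17 were in between and 68 were over 80%, against 65.1%, 12.9% and 21.99% of all CpGs. A gene's mean depended on which CpGs were sampled, so the position of each group of CpGs is given with its value. Only start and end of each gene were annotated, so exon and intron are not given, and the strand was known for 7 of the 10 genes.

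**Figure D1:**
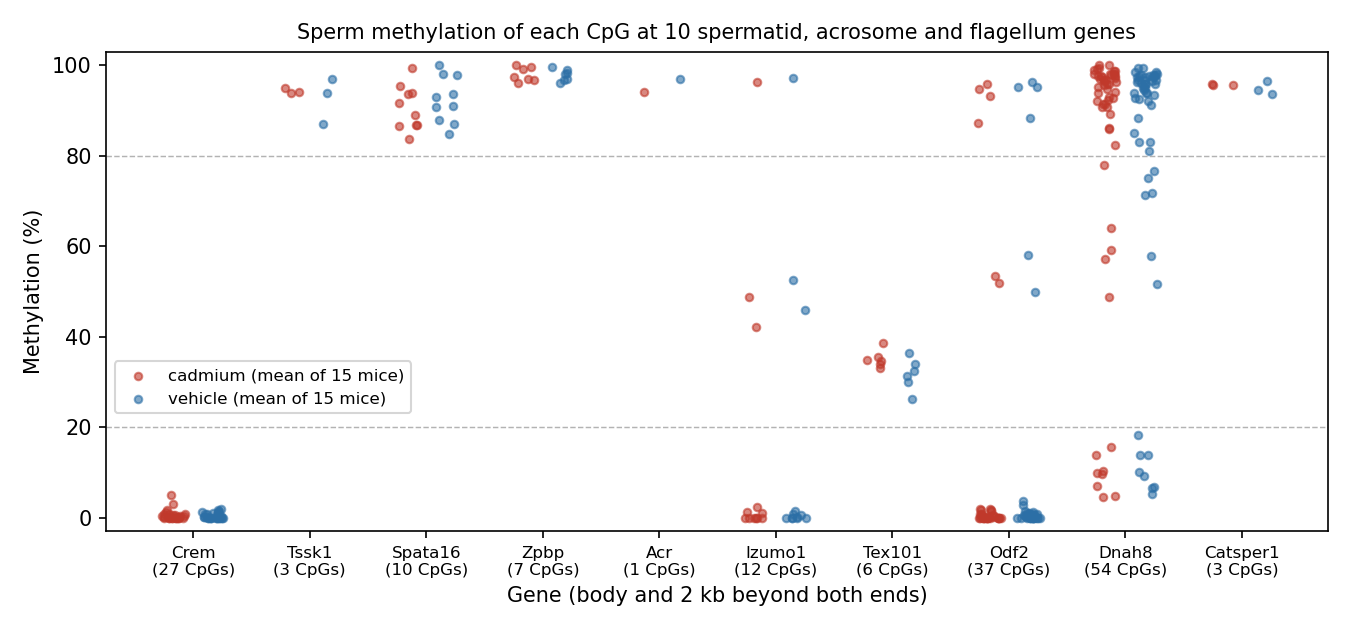
Each point is the mean methylation, in percent, of 1 CpG over the 15 cadmium mice (red) or the 15 vehicle mice (blue), for the 10 genes on the horizontal axis, with dashed lines at 20% and 80%. Most CpGs sat near the floor or the ceiling in both groups. All 6 CpGs of Tex101 lay between the lines.

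No CpG, CpG cluster, gene window or gene end of the 10 genes differed between cadmium and vehicle mice at a Benjamini-Hochberg adjusted p under 0.05. Methylated and unmethylated reads were compared with a logistic model fitted to all features, with an F test of treatment. Its error is the spread between mice, but a group whose mice all read 0% or all 100% adds no spread to it. There p can come out too small, as it may at the smallest-p CpGs of Crem and Spata16 and beside Izumo1. Among single CpGs 7 of 416368 passed (0.00168%), and 0 of the 160. At an unadjusted p under 0.05 there were 10 of the 160, where 10.3% of all CpGs had such a p. Runs of 3 or more CpGs no more than 100 bp apart gave 19 clusters at these genes, of which 0 passed and 0 had an unadjusted p under 0.05. Over all 44885 clusters 0 passed (0.0%) and 6.01% had an unadjusted p under 0.05. For whole gene windows the counts were 0 and 0 of 10, against 0.0% and 4.99% of 23474, and every one of the 10 had an adjusted p of 1. For gene ends they were 0 and 0 of 9, against 0.00775% and 6.01% of 25818. The 2 gene ends that passed belonged to Gm39439, where all vehicle mice read 100%, and Extl3. They are named only because the count is small. The test limma on the percentages, without or with the maternal imprint marker level of each mouse as a covariate, also called 0 features of the 10 genes and 0 in the genome. Its unadjusted p was under 0.05 at 3 of the 160 CpGs and 7231 of all 416368 without the covariate, and at 4 and 8309 with it. At the clusters, windows and ends of the 10 genes it was so at 0 in both fits.

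The CpG with the smallest p in each gene shows how far single sites were from passing. Those of Crem, Spata16 and Dnah8 stand with the gene. In the Odf2 island it was position 29889775, at 0.41% ± 0.79 with cadmium and 2.68% ± 3.85 with vehicle (adjusted p = 0.394). Beside Izumo1 it was position 45628674 in Rasip1, at 0% in every cadmium mouse and 1.499% ± 4.53 with vehicle (adjusted p = 0.468). In Zpbp it was position 11288508, at 99.6% ± 0.99 and 96.8% ± 7.24 (adjusted p = 0.525). In Tssk1, Acr, Tex101 and Catsper1 the smallest adjusted p was 0.794, 0.710, 0.857 and 0.909.

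Crem encodes a cyclic-AMP-responsive transcription factor that switches on many spermatid genes. Its 27 CpGs lay in 1 island at the end of the gene at the higher coordinate (chr18:3336742-3338019), where the body overlaps the start of the non-coding RNA gene Gm6225. The island was at 0.60% ± 0.45 (SD, n = 15) in cadmium mice and 0.46% ± 0.38 in vehicle mice. Single mice ran from 0% to 1.42% (median 0.65%) with cadmium and from 0% to 0.96% (median 0.50%) with vehicle. Every mouse of both groups was therefore near 0, and the groups overlapped throughout. No single CpG averaged over 3.21%. The CpG with the smallest p, at position 3336742, averaged 0.81% ± 1.63 with cadmium and 0% in all vehicle mice, with an adjusted p of 0.205 in the logistic model.

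Tssk1, a kinase made only in testis and needed for shaping spermatids, was methylated. Its gene body (chr16:17894203-17895653) held 3 measured CpGs. They averaged 94.2% ± 5.86 with cadmium (lowest 84.2%, median 96.3%, highest 100%) and 92.5% ± 11.3 with vehicle (57.1%, 96.4% and 100%). The lowest value belonged to a vehicle mouse, and the ranges overlapped. A wider set, for which 10 mice per group with 10 reads sufficed, held 13 CpGs of Tssk1. They began 143 bp inside the 5′ end and averaged 92.4% with reads summed over them, and no single CpG was under 87.7%. The RefSeq promoter window, from 250 bases before to 50 after the start site, held 2 CpGs, the fewest of the 7 genes with such a window. Neither of them was measured, in this set or the wider one. Among these genes only Odf2 and Tex101 had measured CpGs in a promoter window.

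The acrosome genes Spata16, Zpbp and Acr were methylated at the body CpGs read in all mice. Spata16, a Golgi protein that takes part in acrosome formation, had 10 CpGs inside the gene (chr3:26637620-26983249), the first of them 2442 bp downstream of the 5′ end. None of the 9 CpGs in its promoter window was measured, in this set or the wider one. They averaged 90.6% ± 5.83 with cadmium (79.0%, median 90.0%, 98.7%) and 92.4% ± 3.81 with vehicle (85.5%, 93.2%, 98.7%). The groups overlapped over nearly the whole range. Its CpG at position 26892688 had the smallest p of all 160. There the cadmium mice averaged 91.6% ± 11.9, with a lowest value of 64.7%, and all 15 vehicle mice read 100%. The difference of -8.39 percentage points had an unadjusted p of 0.000238 and an adjusted p of 0.192 in the logistic model, so it did not pass. As 24 of the 30 mice read 100% there, most cadmium mice equalled the vehicle mice.

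Zpbp, which encodes a zona pellucida binding protein of the acrosome, was the most methylated of the 10 genes in this CpG set. Its 7 CpGs, all in the body and at least 8845 bp from either end, averaged 98.0% ± 1.66 with cadmium (94.3%, 98.3%, 100%) and 97.7% ± 2.18 with vehicle (93.7%, 98.3%, 100%). All mice of both groups were over 93%. The wider set added a group of 10 CpGs at chr11:11462209-11462258, close to the start site at 11462419. These were at 0.16% ± 0.56 in the 13 cadmium mice and 0.52% ± 1.27 in the 15 vehicle mice that could be read there. With them the mean of the Zpbp window was 65.5%, which moves the gene from the high class to the middle one. Zpbp was thus unmethylated just inside a start site and nearly fully methylated farther into the body. Acr, the acrosomal protease acrosin, had 1 CpG at chr15:89571882-89571883, 3556 bp from the nearer end of the gene. It read 94.1% ± 10.5 with cadmium (72.7%, 100%, 100%) and 96.9% ± 6.26 with vehicle (80.5%, 100%, 100%), and 20 of the 30 mice read 100%.

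Izumo1 encodes the sperm surface protein that binds Juno on the egg, and none of its 12 CpGs lay inside its own body (chr7:45621811-45627242). Its low mean therefore describes neighbours. A CpG 820 bp upstream of its start lies in Fut1, a fucosyltransferase gene, and read 96.3% ± 10.7 with cadmium and 97.1% ± 6.67 with vehicle. Past its 3′ end begins Rasip1, whose product binds Ras proteins in endothelial cells. A group of 9 CpGs inside Rasip1 (chr7:45628616-45628996) read 0.52% ± 0.87 and 0.33% ± 0.59. Between the Fut1 CpG and these 9 CpGs lay a pair at the Rasip1 start (chr7:45627541-45627567), which read 45.4% ± 26.2 with cadmium and 49.2% ± 21.4 with vehicle. In cadmium mice this pair ranged from 0% to 100% (median 44.3%), and in vehicle mice from 6.06% to 81.8% (median 44.4%). Mice of each group were thus spread over almost the whole scale, and the groups overlapped.

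Tex101, a cell-surface glycoprotein of germ cells that is needed for maturation of the fertilization protein ADAM3, was partly methylated at its 5′ end. Its 6 CpGs (chr7:24671594-24672031) lay from 20 to 456 bp downstream of the start. In cadmium mice they averaged 35.1% ± 19.3 (lowest 5.42%, median 36.4%, highest 69.9%), and in vehicle mice 31.7% ± 22.5 (7.23%, 24.6%, 77.3%). The means differed by 3.37 points, less than the SD of either group. Of the cadmium mice 5 were under 20% and 10 between 20% and 80%, of the vehicle mice 7 and 8, and no mouse was over 80%. The 6 CpGs resembled each other, with means from 31.5% to 35.5%. They were read at a median of 65.5 to 121 reads per CpG, and how many distinct molecules these stand for was not measured. Their dispersion, the variance between mice relative to that of counting the reads alone, was 21.3 to 33.5. The medians were 27.2 for Tex101, 3.19 for the CpGs of Crem and 4.63 for those of Odf2.

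The promoter windows of Tex101, Odf2 and Rasip1 are shown because they carry a partly methylated start, an unmethylated island and a pair of CpGs that varied widely between mice. They are RefSeq sequences on GRCm38.p6, 5′ to 3′ along the gene, and capitals mark the CpGs measured in all 30 mice. They lie at chr7:24672001-24672300 on the minus strand (Tex101), chr2:29889740-29890039 on the plus strand (Odf2, for 1 of its 4 windows) and chr7:45627287-45627586 on the plus strand (Rasip1).
Tex101: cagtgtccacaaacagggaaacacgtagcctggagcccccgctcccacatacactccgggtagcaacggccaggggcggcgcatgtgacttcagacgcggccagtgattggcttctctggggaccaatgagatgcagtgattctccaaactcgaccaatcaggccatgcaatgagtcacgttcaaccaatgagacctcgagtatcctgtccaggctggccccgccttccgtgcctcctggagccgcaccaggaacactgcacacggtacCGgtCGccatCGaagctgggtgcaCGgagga
Odf2: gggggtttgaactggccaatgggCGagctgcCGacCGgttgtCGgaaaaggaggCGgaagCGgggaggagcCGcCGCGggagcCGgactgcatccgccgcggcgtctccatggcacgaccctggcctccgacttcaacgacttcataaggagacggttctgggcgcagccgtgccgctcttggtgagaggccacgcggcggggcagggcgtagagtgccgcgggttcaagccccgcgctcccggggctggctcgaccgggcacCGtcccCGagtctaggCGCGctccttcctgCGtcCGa
Rasip1: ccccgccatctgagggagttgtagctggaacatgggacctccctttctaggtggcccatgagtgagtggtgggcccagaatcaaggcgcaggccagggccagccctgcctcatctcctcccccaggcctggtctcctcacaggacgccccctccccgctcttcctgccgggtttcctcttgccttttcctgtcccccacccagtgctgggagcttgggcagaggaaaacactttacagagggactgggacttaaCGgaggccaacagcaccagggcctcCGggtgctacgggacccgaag

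The Tex101 window held 19 CpGs in 300 bases, with 60.3% G+C and an observed-to-expected CpG ratio of 0.70, and its 4 measured CpGs averaged 33.1%. Among the 1287 promoter windows with 15 to 19 CpGs and a measured one, 97.4% were under 20% and 2.41% were between 20% and 80%, the class of Tex101. The Odf2 window held 38 CpGs, of which 16 were measured, at 0.27%. Of 6264 windows with 20 or more CpGs, 99.7% were under 20%. The Rasip1 window held 9 CpGs, and its 2 measured CpGs averaged 47.3%. Among the 603 windows with 5 to 9 CpGs, 53.1% were under 20%, 32.5% were between and 14.4% were over 80%. The cyclic-AMP response element, the palindrome TGACGTCA to which CREM is known to bind, was found once in the Izumo1 window and in 1.80% of all 32619 windows. Its shorter form TGACG, searched on both strands and contained in the full element, was found in the window of Izumo1 and in 2 of 4 windows of Odf2, against 20.9% of all windows.

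Odf2 builds the outer dense fibres of the sperm tail and also serves at centrosomes. Its 5′ end carried an unmethylated island of 31 CpGs (chr2:29889046-29890434). The island was at 0.40% ± 0.36 with cadmium (0%, median 0.44%, 1.18%) and 0.52% ± 0.43 with vehicle (0.02%, 0.46%, 1.61%). Farther in, 4 CpGs from 8419 to 28645 bp downstream of the 5′ end averaged 87.7% to 96.0%. The window mean of 13.3% mixes both, and it was 21.9% in the wider set, which moves Odf2 from the low class to the middle one. There the island had 58 CpGs at 0.47% and 3 CpGs near the 3′ end averaged 93.9%.

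In Odf2 a further pair of CpGs (chr2:29893498-29893547) seemed partly methylated, at 52.7% ± 4.08 with cadmium and 53.9% ± 4.55 with vehicle. Read by strand, only the second CpG on the plus strand was intermediate, and the other readings lay near the floor or the ceiling. The first CpG read 96.7% ± 6.45 (n = 15) and 97.2% ± 7.14 (n = 14) on the plus strand, and 0.89% ± 3.34 (n = 14) and 2.33% ± 9.01 (n = 15) on the minus strand, in cadmium and vehicle mice. The second read 21.0% ± 15.6 and 27.8% ± 22.8 on the plus strand (n = 15 each), and 98.7% ± 3.51 (n = 14) and 100% (n = 15) on the minus strand. In both groups the opposite strands thus went opposite ways. Strands that differed by over 50 points were found at 2 of the 96 CpGs of the 10 genes that were read on both strands (2.08%), both in this pair, and at 0.857% of such CpGs in the genome. Among genome CpGs with a summed level of 20% to 80%, as this pair has, the share was 8.78%. Whether the reads of the different strands come from the same DNA was not tested.

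**Figure D2:**
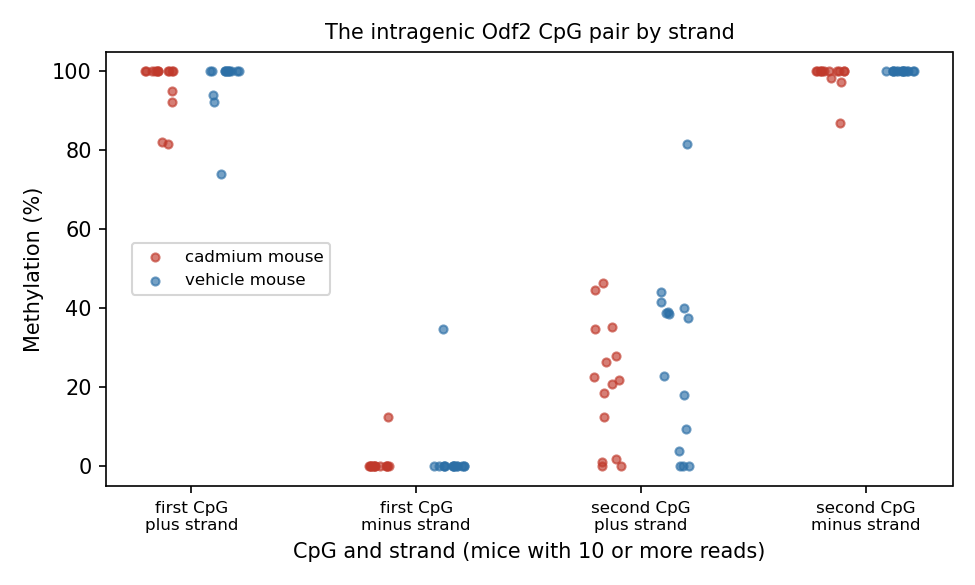
Methylation in percent of the Odf2 CpGs at 29893498 (first) and 29893546 (second), plotted for each strand, with 1 point per mouse with 10 or more reads on that strand, cadmium in red and vehicle in blue. The first CpG was high on the plus strand and low on the minus strand. The second was high on the minus strand and lower, with a wide spread between mice, on the plus strand.

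Dnah8, a heavy chain of the dynein motors that bend the flagellum, was sampled most densely, with 54 CpGs in 22 groups over the gene and its upstream flank (body chr17:30626935-30875762). Of these CpGs 39 were over 80%, 7 between and 8 under 20%. The window averaged 79.3% ± 2.03 with cadmium (76.5%, 78.6%, 83.0%) and 79.1% ± 2.74 with vehicle (73.1%, 79.9%, 82.5%). It sits at the border of the high class, as 5 cadmium and 7 vehicle mice were over 80%. Weighting by reads moved it to 82.3%, and the wider set to 83.1%.

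The 8 CpGs under 20% of Dnah8 formed 2 clusters inside the gene. The one 8795 bp downstream of the 5′ end (chr17:30635730-30635763) was at 12.3% ± 9.71 with cadmium (0%, 12.3%, 34.0%) and 13.9% ± 10.3 with vehicle (0%, 12.7%, 33.5%). The one 31332 bp downstream (chr17:30658267-30658304) was at 6.51% ± 8.43 (0%, 0%, 20.6%) and 6.96% ± 14.2 (0%, 1.80%, 52.6%). In the second cluster the median mouse of each group was at or near 0, and 1 vehicle mouse stood at 52.6%. Between them lay 3 CpGs at 97.6% ± 3.20 and 96.3% ± 5.14, so the low stretches were local. The most methylated cluster (chr17:30849944-30849965) was at 97.8% ± 2.26 and 97.7% ± 3.63.

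Dnah8 also had partly methylated CpGs. A CpG 357 bp upstream of its 5′ end, inside the non-coding RNA gene 1700097N02Rik, read 48.7% ± 23.7 with cadmium (14.0%, 53.0%, 100%) and 51.6% ± 35.4 with vehicle (0%, 53.8%, 100%). It read 0% in 3 mice and 100% in 3 mice. A group of 3 CpGs, 212324 bp downstream (chr17:30839259-30839452), read 60.0% ± 21.8 (20.5%, 64.98%, 90.7%) and 68.2% ± 16.96 (35.3%, 67.9%, 97.6%). The groups overlapped at both places. The CpG of Dnah8 with the smallest p, at 30677117, read 91.5% ± 7.02 with cadmium and 96.7% ± 4.06 with vehicle, with an adjusted p of 0.388.

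Catsper1 encodes the pore of the calcium channel of the sperm tail. Its 3 CpGs inside the body (chr19:5339081-5339127) were at 95.7% ± 4.27 with cadmium (84.9%, 96.4%, 100%) and 94.8% ± 6.74 with vehicle (72.1%, 96.4%, 100%). Apart from a vehicle mouse at 72.1%, all mice were over 80%. In the wider set, 2 CpGs at the gene end at the lower coordinate averaged 89.0%, and the window mean was 85.4%.

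**Figure D3:**
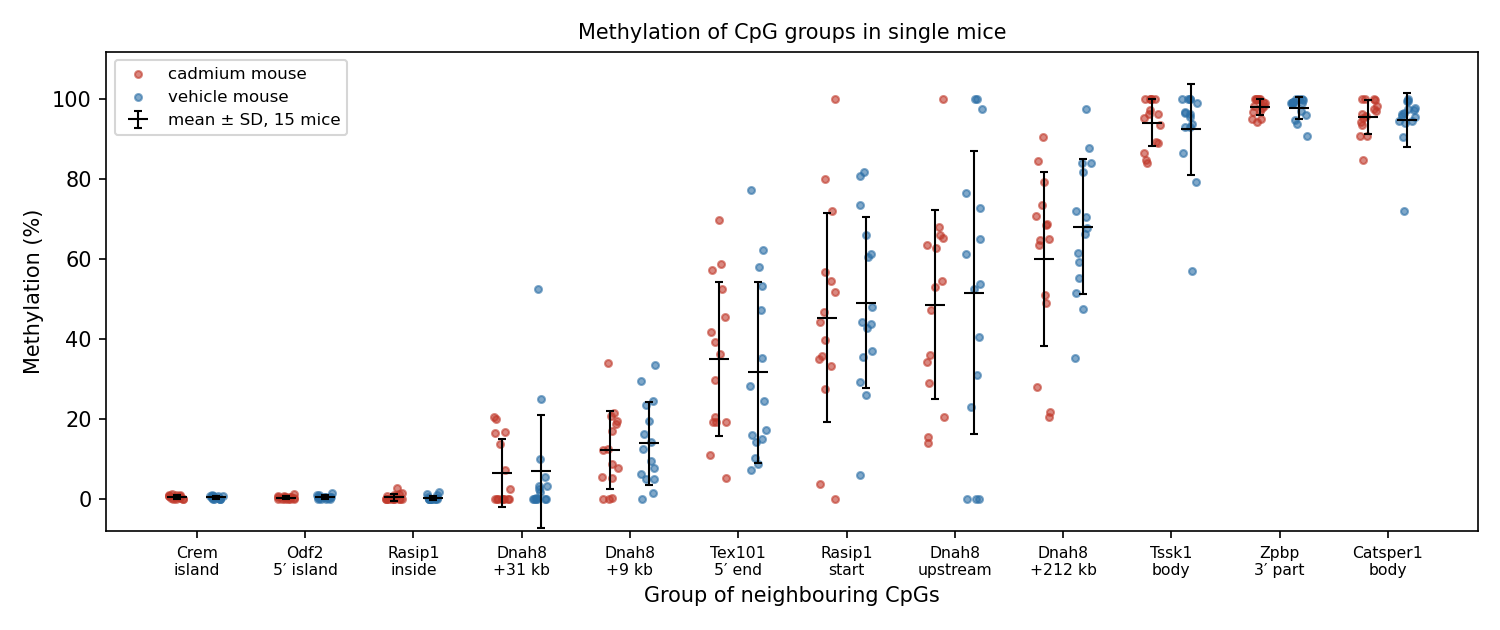
Methylation in percent of 12 groups of neighbouring CpGs, with 1 point per mouse (cadmium red, vehicle blue) and bars for mean ± SD of 15 mice. Distances under Dnah8 are from its 5′ end. The groups at Crem, Odf2 and inside Rasip1 lay near 0 and those at Tssk1, Zpbp and Catsper1 near 100 in most mice, whereas Tex101, the Rasip1 start and the Dnah8 CpG upstream of the gene were spread over the scale in both groups.

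The libraries were deep, with coverage summed over cytosines of 53591172 to 94090975 per mouse. The methylated control DNA read 97.9% to 98.7% and the unmethylated one 0.074% to 0.666%. The label of the cells was checked at imprinted loci. The H19 control region, methylated in sperm, averaged 86.4% ± 10.5 in cadmium mice (62.7% to 100%) and 87.7% ± 13.4 in vehicle mice (62.5% to 100%). Germline differentially methylated regions (DMRs) that take their mark in the oocyte carry none in sperm, whereas body cells keep it on the maternal copy. Of 20 genes listed for such regions 16 had a measured gene end. For each, the end with more measured CpGs within 1000 bp was taken, and its overlap with the DMR itself was not tested. The 14 ends that averaged under 20% gave the marker level. It was 12.6% ± 5.31 with cadmium (4.68% to 20.4%) and 13.1% ± 7.51 with vehicle (2.66% to 30.04%), so it was above 0 in every library. Of the ends used, the lowest was Trappc9 at 0.42% and the highest Nap1l5 at 18.9%, and none was at 0. The 2 measured ends left out for their level were Mest at 28.5% and Plagl1 at 21.9%. Peg10 and Sgce rest on the same CpG and Peg3 and Usp29 on the same CpGs, so these count 2 times among the 14.

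The level of 2 of the 10 genes was correlated with this marker level across the 30 mice. Of 23446 gene windows, 9.86% passed with a positive and 12.2% with a negative Pearson r, and 7.41% and 8.92% with a positive and negative Spearman rho. Tex101 was higher where the marker was higher (Pearson r = 0.62, permutation p = 0.00028, adjusted over all gene windows 0.00512; Spearman rho = 0.61, p = 0.00052, adjusted 0.0125). Without the 2 mice farthest from the median marker level, r was 0.47 (permutation p = 0.0121, n = 28), and within the groups it was 0.52 (cadmium) and 0.70 (vehicle). Dnah8 was lower where the marker was higher (r = -0.62, permutation p = 0.0003, adjusted 0.00537; rho = -0.55, p = 0.00194, adjusted 0.0229). Without the same 2 mice r was -0.44 (permutation p = 0.0192), and within the groups it was -0.52 and -0.66. For the other 8 genes the adjusted p was 0.170 or more. Of the 19 clusters, 1 in Tex101 (chr7:24671952-24672031, r = 0.63, permutation p = 0.00028, adjusted 0.00892; rho = 0.60, p = 0.00056, adjusted 0.0218) and 1 in Dnah8 (chr17:30677117-30677211, r = -0.50, p = 0.00514, adjusted 0.0486; rho = -0.60, p = 0.00046, adjusted 0.02) passed. Over all 44835 clusters the shares were 6.39% and 4.33% by r and 4.02% and 2.72% by rho. The Dnah8 cluster gave r = -0.17 within cadmium mice and -0.64 within vehicle mice. The part of DNA from other cells in these levels was not tested.

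The share of coverage on the mitochondrial genome, 0.0127% to 0.119% of a library, varied with Tex101 and Dnah8 too. For Tex101 r was 0.83 and rho 0.82, both with the smallest permutation p that 100000 resamples allow, 1e-05 (adjusted 0.000102 and 0.000121). Within the groups r was 0.82 and 0.85, and without the 2 mice farthest from the median share it was 0.79. For Dnah8 r was -0.74 (permutation p = 1e-05, adjusted 0.000102) and rho -0.67 (p = 0.00011, adjusted 0.000748). Within cadmium mice it was -0.54, within vehicle mice -0.85, and without the 2 mice -0.62. Izumo1 reached r = 0.43 (permutation p = 0.0178, adjusted 0.049) and rho = 0.44 (p = 0.0146, adjusted 0.0423). Spata16 passed by rho (-0.45, permutation p = 0.0132, adjusted 0.0392) and not by r (-0.36, p = 0.048, adjusted 0.112). Over all gene windows 14.7% passed with a positive and 21.7% with a negative r, and 14.3% and 21.3% by rho. The means of this share were 0.0586% in cadmium and 0.0584% in vehicle mice. Whether mitochondrial DNA or the cells it came from had a part in these levels was not tested.

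**Figure D4:**
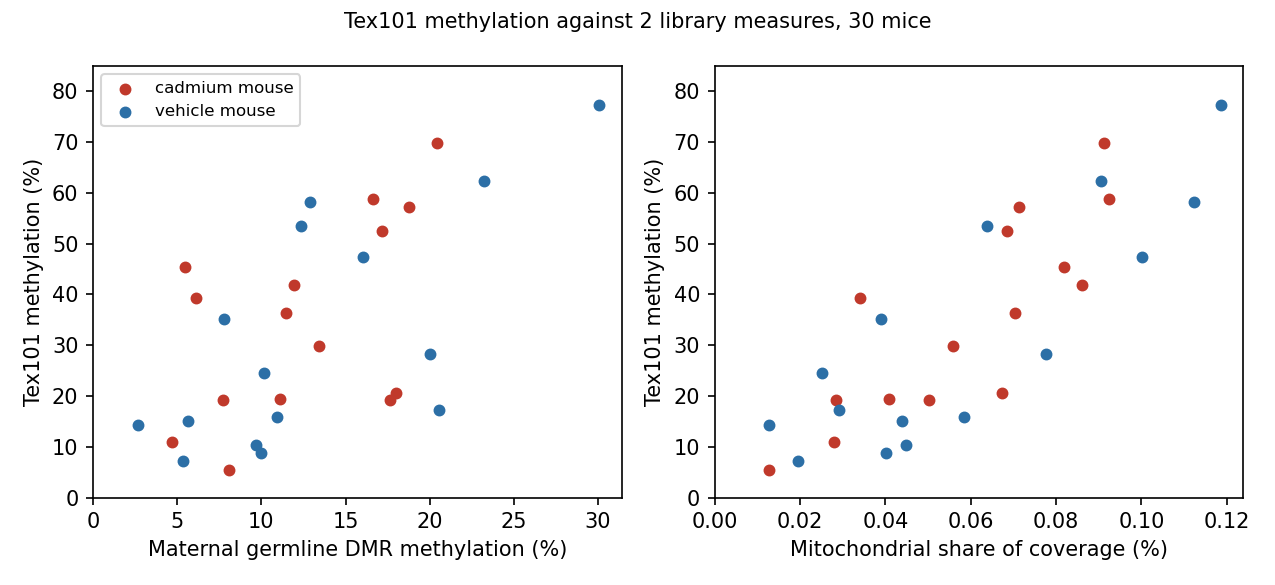
Mean methylation of the 6 Tex101 CpGs in percent, with 1 point per mouse, cadmium red and vehicle blue. It is set against the maternal germline DMR marker level, taken at gene ends (left), and the mitochondrial share of coverage (right), both in percent. Tex101 methylation was higher in mice with higher values of either measure, in both groups.

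The 5′ ends and windows of other genes of the same structures are given beside the shares over all genes. Within 2000 bp of the 5′ end, 6 of 10 measured acrosome genes were under 20%, 3 were between and 1 was over 80%, of 26 in the list. Pick1 (0.18%), which acts in vesicle traffic to the acrosome, and Zpbp2 (0.31%), a relative of Zpbp, were lowest, and Ace (40.2%), an angiotensin-converting enzyme with a testis form, and the sperm lysozyme-like gene Spaca3 (81.9%) highest. Of 20 measured flagellum genes of 48 listed, 14 were under 20%, 2 between and 4 over 80%. Here the anchoring protein gene Ropn1l (0.47%) and Catsperd (0.50%), an auxiliary subunit of the CATSPER channel, were lowest. Highest were Catsper3 (97.2%), another pore subunit, and Catsperg1 (99.0%). Each of the 4 ends over 80%, which include those of Dnaic2 and Tekt4, held only 1 CpG. The whole windows of Catsper3 and Catsperg1 averaged 24.2% (20 CpGs) and 12.1% (24 CpGs). Of 19 measured genes of spermatid regulation of 26 listed, 15 were under 20%, 2 between and 2 over 80%. They ran from Gmcl1 (0.43%) and Tssk4 (0.46%) to Sun5 (94.0%, 1 CpG) and Spata20 (94.8%, 6 CpGs). Over all 13963 measured 5′ ends the shares were 80.5%, 11.5% and 8.02%, and the 5 of the 10 genes with a measured 5′ end fell 1, 2 and 2. Of these, the ends of Izumo1 (96.7%) and Dnah8 (50.2%) rest on 1 CpG each, inside the neighbouring genes Fut1 and 1700097N02Rik. By whole gene window, 4 of 17 acrosome, 9 of 41 flagellum and 15 of 24 regulatory genes were under 20%, against 49.8% of all genes. Between 20% and 80% lay 8, 23 and 5 of them, against 33.2%, and over 80% 5, 9 and 4, against 16.95%.

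None of these 5′ ends passed at an adjusted p under 0.05, higher or lower, and of all 13963 none did in the logistic model. At an unadjusted p under 0.05 there were 0 acrosome, 1 flagellum and 0 regulatory genes, beside 841 of all. The median difference, cadmium minus vehicle, was -0.32 points for acrosome, 0.19 for flagellum and -0.03 for regulatory genes, and 0.01 for all genes. The flagellum gene with the small p was Gapdhs, the sperm form of a glycolytic enzyme, named after its value was seen, at 18.99% ± 14.3 with cadmium and 30.2% ± 19.7 with vehicle (adjusted p = 0.810). By whole gene window none of these genes passed either. An unadjusted p under 0.05 was found at 1 of 17 acrosome, 3 of 41 flagellum and 0 of 24 regulatory genes, beside 1171 of all 23474. These were Adam2 for the acrosome and Gapdhs, Catsperd and Tekt1 for the flagellum, also named after their values were seen.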

How the data were processed

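Reduced representation bisulfite data of 30 sperm libraries were used, 1 per mouse. Each line of a deposited table holds a CpG cytosine on a strand, its read count and its methylated fraction. Bismark 0.22.3, methylKit 1.12.0, Trim Galore 0.5.0 and bcl2fastq are named, with GRCm38 (mm10), in the submitters' processing notes. Steps and settings were not given in the sources used here. Methylated reads were obtained from the authors' count and fraction, which were multiplied and rounded, and both strands of a CpG were summed. CpGs above the 99.9th percentile of coverage in any library were left out. Reads that are PCR copies are not separate molecules, so dispersion between mice, never below 1, set the error.

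Levels are unweighted means over CpGs per mouse, except for groups of CpGs in the wider set. For those, reads were summed over the group in each mouse, whereas the wider-set means of whole windows are unweighted over CpGs. Neighbouring CpGs no more than 1000 bp apart form a group. Tests were logistic models with an F test of treatment (Python 3.11.15, numpy 2.4.6, scipy 1.17.1) and limma 3.58.1, two-sided, adjusted by the Benjamini-Hochberg method over all features. The logistic model was tried on simulated reads of gene windows only, which does not cover its behaviour at single CpGs near the floor or the ceiling. In the tests, reads were summed over a feature. Permutation p values of correlations came from 100000 resamples and were adjusted over all gene windows or all clusters, in place of the 10 genes alone as first planned.

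The 10 genes and all lists were chosen with earlier results of these data known. All 10 genes are described. In each, the least and most methylated CpG clusters and the CpG with the smallest p were to be named, as were the 2 least and 2 most methylated 5′ ends of each other list. For Crem, Spata16, Zpbp, Izumo1, Tex101 and Odf2 the levels of clusters are given only within those of larger sets of CpGs. Gene positions come from RefSeq on GRCm38.p6; all 3263 measured CpGs checked in promoter sequences lay on a CG. Alternatives covered read minimum, upper coverage limit, window size, limma, a replicate block, the marker level as a covariate and, chosen after seeing the data, leaving out CpGs whose strands differ by over 50 points.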

Additional observations from a re-analysis of the deposited data

How the results depend on the processing

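No alternative gave a call at the 10 genes. Over the genome, single CpGs passing fell from 7 to 2 with 20 reads and to 0 with each limma fit, and clusters rose to 1 in the wider set. Gene ends went from 2 to 4 with 5 reads, 1 with 1000 bp, and 0 with 20 reads, the wider set and limma. Levels moved with the CpGs sampled: Izumo1 was at 0.51% with 20 reads and 9.01% in the wider set, and Catsper1 at 85.4% in the wider set. Odf2 was at 0.46% near its ends only, 14.3% by share of reads (a difference of 1.54 points), 15.2% with 5 reads, 21.9% in the wider set and 11.1% without CpGs of discordant strands. Zpbp was at 71.4% with 5 reads and 65.5% in the wider set. Dnah8 was at 50.2% near its ends (a difference of -2.93 points), 82.3% by share of reads, 87.3% with 20 reads and 83.1% in the wider set. Each of these alternatives holds other CpGs or weights them by reads. With 20 reads Tssk1 had no CpG and gave no value.

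Of 79 alternative gene window differences 0 passed and 5 changed sign. These were Izumo1 (0.30 points) and Zpbp (-1.08) with 20 reads, and Tssk1 (-1.27), Zpbp (-0.30) and Catsper1 (-0.33) in the wider set; the cause was not tested. Mice share replicate numbers across the groups, and 7 of 15 pairs correlated over 0.1 (from -0.41 to 0.82). The mean correlation was 0.148 for mice of the same number and -0.0083 for mice of other numbers. Only 2 cadmium mice correlated best with the vehicle mouse of their own number. The mice were treated as unpaired, so any shared structure was left out of the main tests. With the replicate block limma called 0 features of each kind, and 1 of the 10 gene windows had an unadjusted p under 0.05, as did 989 of all 23474. It was that of Izumo1, at -4.60 points with reads summed (p = 0.0379, adjusted 1). By unweighted mean over CpGs the difference was -0.54 points, and none of the CpGs lay inside the body of Izumo1.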

Other observations

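The wider set showed further partly methylated places inside genes that were methylated at most of their measured CpGs. In Spata16, 2 CpGs at chr3:26697547-26697552 read 26.5% ± 24.5 in 15 cadmium mice and 40.6% ± 29.97 in 14 vehicle mice, with ranges of 0% to 72.5% and 2.02% to 93.4%. A Spata16 CpG at position 26924291 read 30.4% ± 42.5 (n = 11) and 30.9% ± 37.4 (n = 12), from 0% to 100% in both groups. In Dnah8, groups of CpGs 54807, 66762 and 217365 bp downstream of the 5′ end averaged 50.9%, 63.7% and 70.3%. In Catsper1, 4 CpGs at chr19:5337660-5337868 read 74.8% ± 14.9 with cadmium and 67.5% ± 18.1 with vehicle. At each of these places the spread between mice was larger than the difference between the groups.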
